A study of Rattus norvegicus with 12 samples.

Results

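Prostaglandins and leukotrienes are lipid messengers made from arachidonic acid, and 8 genes of their synthesis and sensing were followed in rat hearts: the cyclooxygenases Ptgs1 and Ptgs2, the prostanoid synthases Ptgis, Ptges and Ptgds, the prostaglandin receptor Ptger4, and Alox5 and Alox5ap, which start leukotriene synthesis. They were taken by symbol and comprised 8 of 14217 measured genes and 10 of 31042 probe sets, counting every probe set annotated to 1 of these symbols and no other. Messenger RNA had been measured on 1-colour 3' oligonucleotide arrays, 1 array a heart, in 6 failing and 6 control hearts, described as biological replicates. The study followed the spontaneously hypertensive rat (SHR), a strain bred for high blood pressure, from compensated hypertrophy into systolic failure. For the control animals the sources used here give no strain, age or treatment, and for no heart do they give the chamber sampled. A description field names a cell line where the tissue field names heart. Of 8 cardiomyocyte markers 7 were measured, and all 7 were among the brighter genes, as defined below, in the mean of all hearts.

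Phospholipases A2 free arachidonic acid from membranes, and a cyclooxygenase turns it into the unstable prostaglandin H2, from which separate synthases make prostacyclin (Ptgis), prostaglandin E2 (Ptges) and prostaglandin D2 (Ptgds). Alternatively 5-lipoxygenase, with its activating protein, turns it into leukotrienes. Ptgs1 is expressed constitutively in many tissues and Ptgs2 is induced by cytokines and stress. In the cardiovascular system prostacyclin relaxes vessels and restrains platelets, and leukotrienes come mostly from myeloid cells.

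Ptgis, the prostacyclin synthase gene, rose in failing hearts, at 1.89 times the control level, and was the only member to pass the test among brighter genes, while none passed over all genes. The cyclooxygenase genes had differences at least as large, 3.85-fold for Ptgs2 and 2.08-fold for Ptgs1, both higher in failing hearts, but both genes were dim and were tested only over all genes. Ptges, Ptger4 and Alox5 lay within 0.19 (log2) of the control mean. Ptgds and Alox5ap were higher by 0.81 and 0.65 without passing. All values below are log2 of the deposited intensity, differences are failing minus control, and an intensity sets one gene's hearts side by side but not one gene against another.

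The cyclooxygenase genes had the largest differences among the members, so the 250 bases before each transcription start are shown (RefSeq, GRCr8 build). Both lie on the plus strand, Ptgs1 at chr3:39981169-39981418 and Ptgs2 at chr13:64713813-64714062, and capitals mark matches to any of 4 motifs searched on both strands, the C/EBP factor motif TTNNGCAAT, the E-box motif CACGTG, the GC-box motif GGGCGG and the TATA-box motif TATAAA.
Ptgs1: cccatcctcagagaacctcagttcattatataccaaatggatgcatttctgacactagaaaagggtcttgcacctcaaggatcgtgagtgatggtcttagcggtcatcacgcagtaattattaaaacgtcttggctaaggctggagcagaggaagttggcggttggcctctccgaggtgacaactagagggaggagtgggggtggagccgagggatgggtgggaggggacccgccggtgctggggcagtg
Ptgs2: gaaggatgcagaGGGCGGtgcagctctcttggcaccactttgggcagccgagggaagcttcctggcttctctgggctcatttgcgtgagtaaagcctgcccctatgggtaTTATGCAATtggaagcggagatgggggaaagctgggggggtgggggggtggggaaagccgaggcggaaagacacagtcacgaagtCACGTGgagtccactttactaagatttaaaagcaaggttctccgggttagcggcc
The Ptgs2 window held 1 C/EBP match, 1 E-box and 1 GC box, starting at positions -140, -55 and -238 relative to the start, and no TATAAA. Of 33469 windows of this length, 2.04% held the C/EBP motif, 5.59% the E-box, 30.5% the GC box and 12.9% TATAAA. The Ptgs1 window held 0 matches to any of the 4. A match is a run of letters and not a measured binding site. Windows were found for 6 of the 8 genes.

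Failing hearts were set against control hearts in limma, with p-values adjusted by the Benjamini-Hochberg method over all 14217 genes. At an adjusted p of 0.05 that fit called 0.00% of genes higher and 0.00% lower, so 0 of 8 members passed. At an unadjusted p under 0.05 it had 9.12% of all genes higher and 9.95% lower, and among the members 4 were higher and 0 lower (Ptgs1, Ptgs2, Ptgis and Alox5ap). The exact permutation test passed no gene over all genes, its smallest adjusted p being 0.108, so its 0 of 8 members is no result about them. Dim genes are those with a mean under 8.21, the median over genes, and they varied more between hearts (median residual SD 0.784, against 0.236 for brighter genes). Of the members 5 were dim, and 3 (Ptgis, Ptgds and Alox5ap) were among the 7109 brighter genes, which were also fitted alone. That fit called 5.40% of brighter genes higher and 4.73% lower, and 1 of the 3 brighter members, Ptgis. In the same tests by probe set, 0.00% passed in either direction over all 31042, while 7.25% were higher and 7.23% lower at an unadjusted p under 0.05, as were 4 and 0 of the 10 member probe sets. Among the brighter probe sets 5.44% were called higher and 4.12% lower, and of the members again that of Ptgis. The line fell between Alox5ap, with a mean of 8.27, and Ptgs1, with 8.13, and Ptgs2 followed at 7.70. Here a gene is said to have risen or fallen when it passed among the brighter genes. All 8 differences were above 0, with a median of 0.73, whereas 6541 of all 14217 genes lay above 0 and their median was -0.03. The calls of Ptgs1 and Ptgs2 rested on the processing. Both passed, with Ptgis, over all genes with an intensity trend and robust variance (2.21% of all genes higher), with array weights (2.34% higher) and without control replicate 4 (2.07% higher), and among the brightest 60% of genes, a limit chosen after seeing the data (4.61% higher). Ptgs1 alone passed with an offset of 32 added before log2 (0.563% higher), and Ptgs2 alone without failing replicate 5 (1.61% higher).

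**Figure D1:**
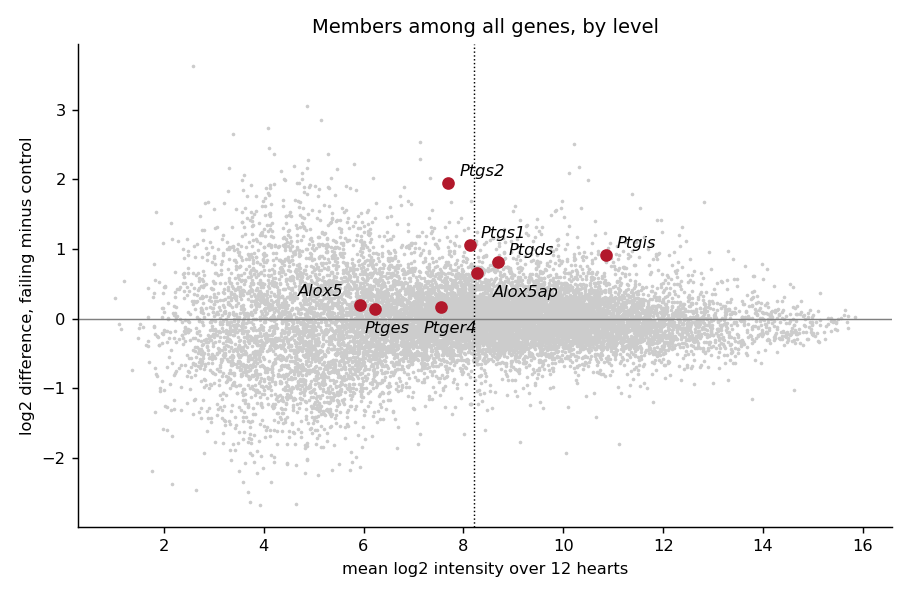
Each point is a gene, with its mean log2 intensity over 12 hearts (x) and its log2 difference, failing minus control (y). Red points are the 8 members and the dotted line is the limit for dim genes at 8.21. Ptgs2 lay at 1.94 with a mean of 7.70, left of the line, and Ptgis at 0.92 with a mean of 10.85, well to its right.

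On the first principal component of the brighter genes (41.2% of the variance) failing replicate 5 had a score of 6.11, of the sign common among controls, and control replicate 4 a score of -7.98, of the sign common among failing hearts. Where leaving either out changes the call of a member or of a named pathway gene, this is stated. No scan dates or batches were available. The 3' minus 5' difference of control probe sets, a sign of RNA quality, ran from 0.50 to 0.70 in failing hearts and from 0.36 to 0.78 in control hearts.

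Ptgs1 encodes cyclooxygenase 1. The brighter of its probe sets, itself dim by its mean, had a lowest, median and highest value of 7.94, 8.77 and 9.06 in failing hearts, against 7.12, 7.45 and 8.20 in control hearts. Failing replicate 6 alone lay within the control range, and the other 5 failing hearts lay above every control heart. The difference was 1.06 ± 0.23 (SE, n = 6 in each group; 95% interval 0.56 to 1.56; limma adjusted p = 0.0729 over all genes, exact permutation p = 0.00649 unadjusted). The other Ptgs1 probe set was dim in every heart, with a lowest, median and highest value of 3.00, 6.09 and 6.60 in failing hearts and of 3.15, 4.12 and 5.82 in control hearts. Its difference was 1.42 ± 0.65 (limma adjusted p = 0.344 over all probe sets). Both probe sets were thus higher in failing hearts, though the groups of the dimmer one overlapped widely. With control replicate 4 left out, Ptgs1 had a limma adjusted p of 0.0472.

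Ptgs2, for the inducible cyclooxygenase 2, had the largest difference of the members. Its lowest, median and highest values were 7.14, 8.57 and 10.02 in failing hearts, against 5.71, 6.95 and 7.46 in control hearts. Failing replicate 6 was the highest heart, failing replicate 3 the next at 9.39, and failing replicate 5 alone lay inside the control range. The difference was 1.94 ± 0.48 (SE, n = 6 in each group; 95% interval 0.90 to 2.99; limma adjusted p = 0.0863 across the array, exact permutation p = 0.00649 unadjusted). The limma adjusted p was 0.0275 without failing replicate 5 and 0.0470 without control replicate 4. The antisense transcript Ptgs2os, chosen after its values were seen, had 4.62 ± 0.93 across failing hearts and 5.92 ± 1.45 across control hearts (SD, n = 6), and its dim probe set did not pass (limma adjusted p = 0.391 over all probe sets).

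**Figure D2:**
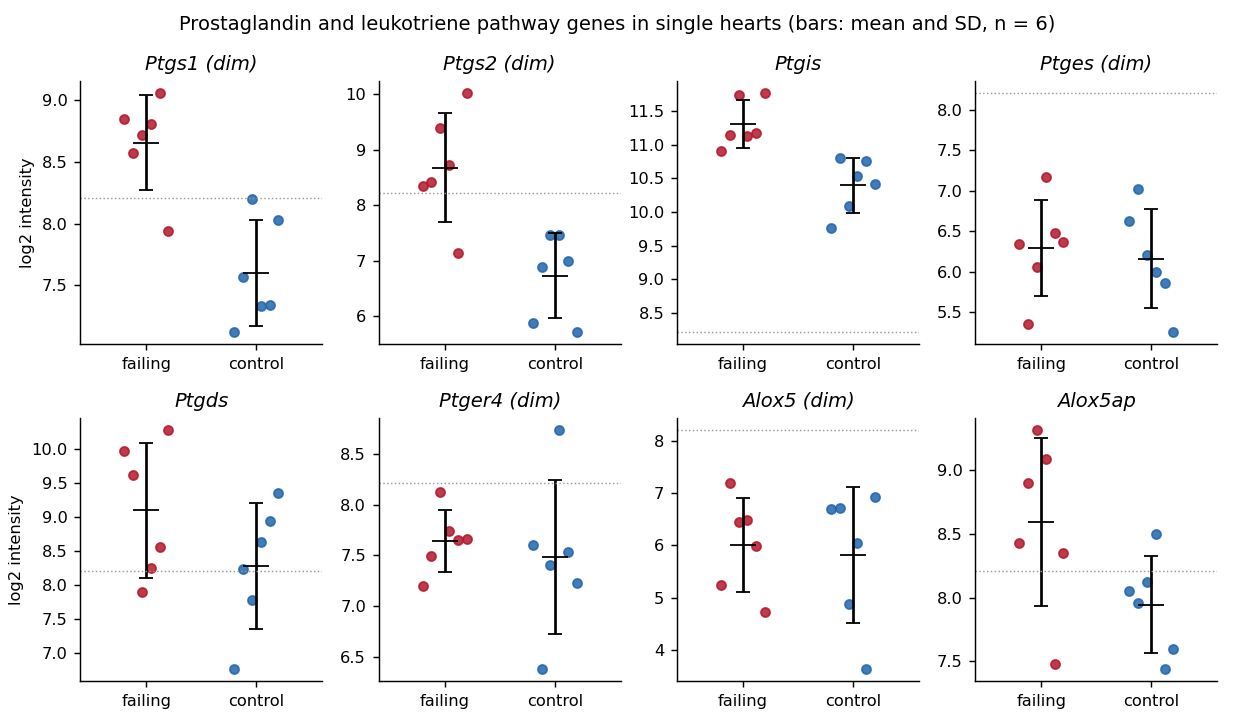
The log2 intensity (y) of each member is plotted by heart for failing (red, left) and control (blue, right) groups, using its brighter probe set. Black marks are means with SD (n = 6), the dotted line is the limit for dim genes, and each panel has its own scale. The groups of Ptgis are apart, those of Ptgs1 and Ptgs2 overlap through 1 failing heart each, and in Ptges, Ptger4 and Alox5 the group means are within 0.19 of each other and the hearts overlap.

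Ptgis, the enzyme gene for prostacyclin, was well above the limit for dim genes in every heart. Its lowest, median and highest values were 10.91, 11.16 and 11.77 in failing hearts, against 9.76, 10.48 and 10.81 in control hearts. All 6 failing hearts lay above every control heart, which 2.11% of brighter genes did in this direction. Failing replicates 3 and 6 were highest, at 11.74 and 11.77, and control replicate 1 was lowest. Ptgis rose by 0.92 ± 0.20 (SE, n = 6 in each group; 95% interval 0.49 to 1.34; limma adjusted p = 0.0185 among the brighter genes and 0.0818 over all genes). The call among the brighter genes held without any 1 of the 12 hearts (adjusted p from 0.00994 to 0.0464). It ended with the exact permutation test (exact p = 0.00216, the smallest that 6 against 6 can give, adjusted p = 0.0669 among the brighter genes).

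Ptges, the inducible synthase for prostaglandin E2, was dim in both of its probe sets. The brighter one had a lowest, median and highest value of 5.35, 6.35 and 7.17 in failing hearts, against 5.25, 6.11 and 7.02 in control hearts, so the groups covered nearly the same range. Its difference of 0.13 ± 0.33 had a 95% interval from -0.59 to 0.85 (limma adjusted p = 0.864 over all genes), and was -0.05 without failing replicate 4 or control replicate 6. The other probe set gave -0.12 ± 0.66. Ptgds, the lipocalin-type synthase for prostaglandin D2, spread widely in both groups, with a lowest, median and highest value of 7.89, 9.09 and 10.29 in failing hearts and of 6.76, 8.43 and 9.35 in control hearts. Failing replicates 1, 2 and 6 exceeded every control heart and the other failing hearts did not. The difference was 0.81 ± 0.47 (95% interval -0.19 to 1.82; limma adjusted p = 0.258 among the brighter genes). It was 0.51 without control replicate 1, and ran up to 1.05, without failing replicate 3, when single hearts were left out.

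Ptger4, the EP4 receptor for prostaglandin E2, had a lowest, median and highest value of 7.20, 7.65 and 8.13 in failing hearts, against 6.38, 7.47 and 8.74 in control hearts. The failing hearts lay inside the range of the control hearts. Control replicate 4 was the highest heart and control replicate 2 the lowest, and the difference was 0.16 ± 0.32 (95% interval -0.53 to 0.86; limma adjusted p = 0.819 over all genes). It was -0.06 with control replicate 2 left out.

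Alox5, for 5-lipoxygenase itself, was dim in every heart. It had a lowest, median and highest value of 4.73, 6.22 and 7.19 in failing hearts and of 3.64, 6.37 and 6.92 in control hearts. Its difference was 0.19 ± 0.60 (95% interval -1.12 to 1.51; limma adjusted p = 0.891 over all genes), and it was -0.04 without failing replicate 2 and -0.24 without control replicate 5. Alox5ap, whose product presents arachidonic acid to 5-lipoxygenase, had a lowest, median and highest value of 7.48, 8.67 and 9.32 in failing hearts, against 7.44, 8.01 and 8.50 in control hearts. Failing replicates 2, 3 and 4 lay above all control hearts, while failing replicate 5, at 7.48, was nearly as low as the lowest control heart. The difference was 0.65 ± 0.27 (95% interval 0.07 to 1.23; limma adjusted p = 0.123 among the brighter genes). The adjusted p was 0.0167 without failing replicate 5, and 0.0155 with array weights, in fits that called 8.38% and 12.1% of brighter genes higher.

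**Figure D3:**
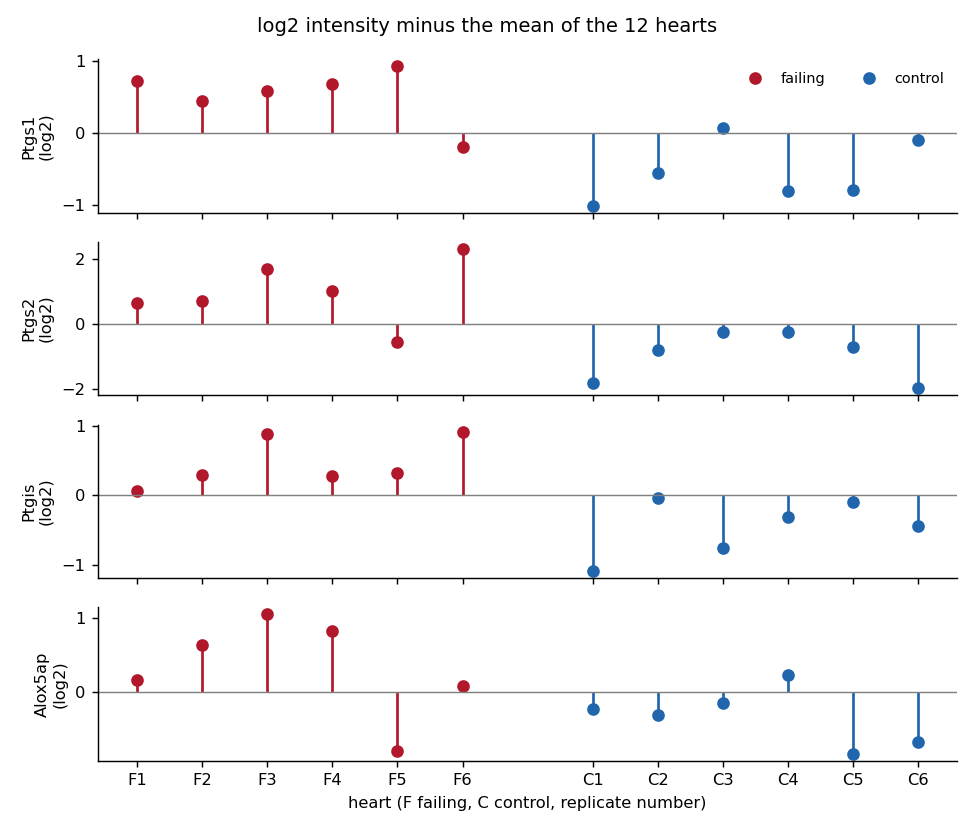
Lines and points give log2 intensity minus the mean of the 12 hearts (y) for Ptgs1, Ptgs2, Ptgis and Alox5ap in each failing (F, red) and control (C, blue) heart. Failing replicate 6 was the lowest failing heart for Ptgs1 and the highest for Ptgs2 and Ptgis, and failing replicate 5 was the lowest for Ptgs2 and Alox5ap and the highest for Ptgs1.

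The hearts thus did not keep 1 order across the members. Failing replicate 6 was lowest of its group for Ptgs1, at 7.94, yet highest for Ptgs2, at 10.02, and for Ptgis, at 11.77. Failing replicate 5 was highest for Ptgs1, at 9.06, and lowest for Ptgs2, at 7.14, and for Alox5ap, at 7.48. For each brighter member the 3 brighter genes with the most similar profile over the 12 hearts were found by the root mean square distance between values scaled to mean 0 and SD 1, for which the median over brighter genes was 1.43 to 1.45. Nearest to Ptgis were Actn1 (0.30), Pla1a (0.32) and Bace2 (0.33). Nearest to Alox5ap were the myeloid-expressed genes Gpnmb (0.37), Mrc1 (0.39) and C1qa (0.40). Nearest to Ptgds were Mapkapk5 (0.46), Gnl1 (0.50) and Ankrd23 (0.53). These distances describe the hearts and include the difference between the groups.

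**Figure D4:**
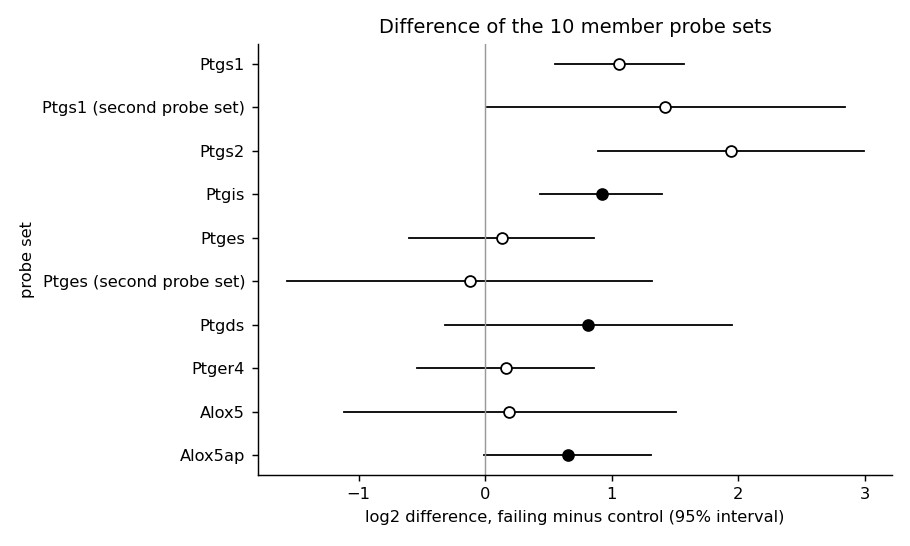
Points are log2 differences, failing minus control, of the 10 member probe sets and lines their 95% intervals from limma over all probe sets. Filled points are brighter and open points dim probe sets. The intervals of both Ptgs1 probe sets, of Ptgs2 and of Ptgis lie above 0, and that of Alox5ap starts at -0.01.

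Of 67 other genes of arachidonic acid metabolism 60 were measured and 21 were among the brighter genes, where 3 rose and 2 fell, against 5.40% and 4.73% of all brighter genes. The median difference of the 60 was -0.05, and 26 lay above 0. The counts rested on single hearts. The 5 calls became 0 without failing replicate 3 or 6 or control replicate 6, and 1 without failing replicate 4 or control replicate 1 or 2. They became 2 without failing replicate 1 or control replicate 3 or 5, and 3 without failing replicate 2. They rose to 7 without failing replicate 5 and to 9 without control replicate 4. Calls among all 7109 brighter genes rose too, to 1200 and 1688 in these fits, from 384 higher and 336 lower with every heart. None of the 60 passed over all genes by limma, where 6 were higher and 4 lower at an unadjusted p under 0.05.

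Among phospholipases A2, 2 of 5 brighter members rose and 0 fell, against 5.40% and 4.73% of all brighter genes. Pla2g4a, the cytosolic enzyme that supplies arachidonic acid to the cyclooxygenases, had a lowest, median and highest value of 9.91, 10.34 and 11.06 in failing hearts, against 9.68, 9.75 and 9.91 in control hearts. The control hearts were tightly grouped and all 6 failing hearts lay above them, as in 2.11% of brighter genes, though the nearest did so by less than the rounding. The difference was 0.66 ± 0.15 (limma adjusted p = 0.0245 among the brighter genes, and as high as 0.0588 without 1 heart). The secreted enzyme gene Pla2g2a averaged 12.91 ± 0.57 across failing and 11.71 ± 0.87 across control hearts (SD, n = 6), a rise of 1.20 ± 0.36 that was barely called (limma adjusted p = 0.0497). That call held without 3 of the 12 hearts in turn and ended without each of the other 9.

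Of the transporters and breakdown enzymes of prostaglandins, 0 of 4 brighter members rose and 1 fell, against 5.40% and 4.73% of all brighter genes. Abcc4, an exporter of prostaglandins and cyclic nucleotides, averaged 8.19 ± 0.21 across failing and 8.72 ± 0.24 across control hearts (SD, n = 6) and fell by 0.53 (SE 0.13, limma adjusted p = 0.0257). Slco2a1, the prostaglandin uptake transporter gene, was dim and is named after its values were seen. It had a lowest, median and highest value of 7.55, 7.65 and 8.50 in failing hearts, against 4.49, 6.27 and 7.42 in control hearts, with no overlap, as in 1.26% of all genes. Its difference was 1.65 ± 0.39 (limma adjusted p = 0.0838 over all genes), and its other probe set gave 0.99 ± 0.48. Slco2a1 passed over all genes without control replicate 4 (limma adjusted p = 0.034).

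None of the 4 brighter members passed among the other prostanoid synthases, where Ptges2, a membrane-associated prostaglandin E synthase, had the smallest p (-0.35 ± 0.12, limma adjusted p = 0.0826). Ptges2 passed without control replicate 4 (limma adjusted p = 0.0342). Of 9 genes listed as other prostanoid receptors 7 were measured, without Ptgir, the prostacyclin receptor gene, and Ptgdr. The 1 brighter gene was Ptgfrn, for a regulator of a prostaglandin receptor, and the 6 receptors themselves were dim. Tbxa2r, the thromboxane receptor, had the smallest p of this list, with a level of 3.19 ± 0.47 across failing and 2.84 ± 0.35 across control hearts (SD, n = 6; limma adjusted p = 0.435 over all genes). Of the genes for leukotriene synthesis and leukotriene receptors 10 of 13 were dim. Mgst3, a microsomal glutathione transferase able to make leukotriene C4, fell by 0.63 (SE 0.19, limma adjusted p = 0.0459). Mgst2, a related transferase named after its values were seen, gave 0.64 ± 0.23 without passing (limma adjusted p = 0.0812, and 0.0101 without failing replicate 5). Other lipoxygenases had 0 calls, with 3 of the 4 measured dim, and Alox12 had the smallest p (0.42 ± 0.36). Among epoxygenases and epoxide hydrolases Ephx1, microsomal epoxide hydrolase, rose by 0.45 ± 0.12 (limma adjusted p = 0.0362), while Ephx2, the soluble hydrolase that inactivates epoxyeicosatrienoic acids, is named after its values were seen and gave -0.60 ± 0.19 without passing (limma adjusted p = 0.0612). Ephx2 did pass without failing replicate 5 and without control replicate 4 (limma adjusted p down to 0.00749). With each of the 12 hearts left out in turn, the call of Abcc4 held in 6 cases, that of Mgst3 in 2 and that of Ephx1 in 3, and their adjusted p reached 0.0617, 0.0992 and 0.0830. That of Pla2g4a held in 8.

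**Figure D5:**
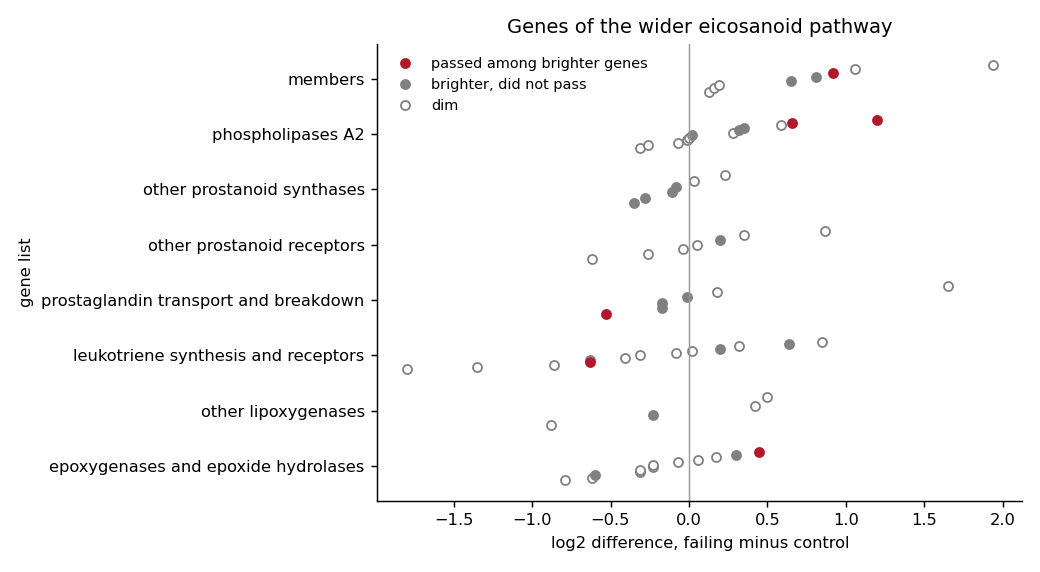
Each point is the log2 difference, failing minus control (x), of 1 gene in a pathway list (y). Red points passed among the brighter genes, grey points are brighter genes that did not pass, and open points are dim. Ptgis, Pla2g4a, Pla2g2a and Ephx1 are the red points right of 0, and Abcc4 and Mgst3 those left of it.

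Several cell types of the heart can make these enzymes, and in whole tissue more cells of a type and more RNA per cell cannot be told apart. For each marker list below, the shares to set beside its calls are 5.40% higher and 4.73% lower among all brighter genes. At an unadjusted p under 0.05 they are 9.12% higher and 9.95% lower over all genes. Of 12 macrophage markers, all measured, 2 of 8 brighter ones rose, Lyz2 (0.76 ± 0.18) and Mrc1 (1.03 ± 0.24), and 0 fell. At an unadjusted p under 0.05, 6 of 12 were higher, against 9.12% of all genes. Differences were above 0 for 10 of the 12 and below 0 for 2, Adgre1 (-0.58) and Ptprc (-0.66), both dim and named after their values were seen. The log2 of the summed intensity of the 12 markers ran from 13.99 to 15.06 in failing hearts and from 13.47 to 14.76 in control hearts. Smooth muscle and pericyte markers had 2 of 5 brighter members called higher, Tagln (0.99 ± 0.27) and Pdgfrb (0.59 ± 0.16), and 0 lower. At an unadjusted p under 0.05, 4 of the 6 measured were higher and 0 lower, and 5 of the 6 differences were above 0. Their sums ran from 12.05 to 13.29 in failing and from 11.88 to 12.59 in control hearts. Endothelial markers had differences on both sides of 0. Of 5 brighter members 1 was called higher, Vwf (1.10 ± 0.22), and 0 lower, but 2 had differences below 0. At an unadjusted p under 0.05, 2 were higher and 1 lower (Tie1, -0.36, named after its values were seen). Their sums ran from 13.30 to 13.89 in failing and from 13.05 to 13.41 in control hearts. Fibroblast markers had 1 of 7 brighter members called higher, Dcn (0.50 ± 0.10), and 0 lower. At an unadjusted p under 0.05, 3 of the 8 measured were higher and 0 lower, and all 8 differences were above 0. Their sums ran from 15.60 to 16.65 in failing and from 15.34 to 16.13 in control hearts. The part of these cell types in the differences of Ptgs1, Ptgs2, Ptgis and Alox5ap was not tested. Platelet markers, of interest for Ptgs1, had 0 of 1 brighter member called, and 4 of the 5 measured were dim and could not be called. At an unadjusted p under 0.05, 0 were higher and 1 lower, Itga2b (-0.67, limma unadjusted p = 0.0226), named after its values were seen. Platelet sums ran from 10.35 to 11.28 in failing and from 10.29 to 11.54 in control hearts. Neutrophil markers were dim in 3 of 4 measured cases, mesothelial markers in 3 of 4, and mast cell and T and B cell markers in 8 of 8 and 5 of 5. These lists had 0 calls, but a dim marker could not be called, so this is no result about the dim ones. At an unadjusted p under 0.05, T and B cell markers had 1 higher and 1 lower, mesothelial markers 0 and 1, and the other lists 0 and 0. Atrial markers had 0 calls, with sums from 15.58 to 16.00 in failing and from 15.23 to 16.15 in control hearts. Nppa, with a mean of 15.64, made up most of these sums, which hide the spread of the others. Myl7 and Myl4 are named after their values were seen. Myl7 had a lowest, median and highest value of 7.15, 8.24 and 11.83 in failing and of 5.88, 7.06 and 13.38 in control hearts. For Myl4 these were 8.93, 9.07 and 11.32, against 7.37, 7.87 and 12.59. Whether the chamber sampled differed between hearts was not tested.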

How the data were processed

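The authors deposited 1 table of intensity values for 31099 probe sets in 12 columns, 1 a heart, on a linear scale from 0.1 to 79913.6. RMA is named, without a version, in the submitters' processing notes. The values are not on the log2 scale RMA usually gives, and the mean of every array after trimming 2% from each end lay between 500.19 and 500.23, so the summary method is not settled and a shift of most genes would not be seen. Samples were grouped by title.

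Intensities were taken to log2 with no offset. The tests did not use the 57 control probe sets. The probe set of highest mean stood for each of 14217 genes with 1 symbol in the array annotation. The group difference was fitted by limma 3.58.1 (R 4.3.3; lmFit and eBayes with no other term), two-sided, with Benjamini-Hochberg adjustment at 0.05 over all genes, and again over the 7109 genes at or above the median mean of 8.21. SEs and intervals beside an adjusted p among the brighter genes come from that fit. The exact permutation test of the difference in means used all 924 arrangements. Both tests were tried on simulated data. The members, lists and tests were chosen with earlier results of these data known. Named are all members, the called genes of each pathway list or the one of smallest p, at most 2 called genes of each marker list, and the 3 nearest profiles. Replicate numbers did not pair the hearts. Alternatives covered an offset of 32, normalization, variance model, array weights, probe set means, a replicate term, RNA quality and each heart left out. The number of arrays limits the precision. Figures were drawn with matplotlib 3.10.9.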

Additional observations from a re-analysis of the deposited data

Results flagged for a closer look

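In the dimmer Ptgs1 probe set failing replicate 2, at 3.00, stood far below the other 5 failing hearts. Its gap to the nearest of them was 0.692 of the group's range, above Dixon's limit for 6 samples, and chance gives such a flag in about 1 in 20 groups. In the brighter Ptgs1 probe set the same heart was at 8.57, within the failing group.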

How the results depend on the processing

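Over all genes 0 members passed, but 1 did with an offset of 32 (Ptgs1, adjusted p = 0.0481) and 3 did (Ptgs1, Ptgs2 and Ptgis) with an intensity trend and robust variance or with array weights, fits that called 0.563%, 2.21% and 2.34% of all genes higher. Without 1 heart the count ran from 0 to 3, with 1 member without failing replicate 5 and 3 without control replicate 4. Among the brighter genes 1 member passed, against 2 with array weights, 2 with the replicate block (Alox5ap besides Ptgis, limma adjusted p = 0.0424, with 3.88% of brighter genes higher), 0 by the exact permutation test, 0 with no filter on dim genes, and 1 to 2 without 1 heart. Among the brightest 60% of genes, a limit chosen after seeing the data because Ptgs1 and Ptgs2 lay just under the other one, 3 members passed (Ptgs1, adjusted p = 0.0207, Ptgs2, 0.0261, and Ptgis, 0.0236), with 4.61% of those genes higher. No member probe set passed over all probe sets and 1 did among the brighter ones, in both cases by limma, where 5.44% of brighter probe sets were higher. The 5 calls in the other pathway genes were 2 after median centring, 10 with array weights, 0 by the exact permutation test, 2 with the mean of all probe sets, 3 with the replicate block and 0 to 9 without 1 heart. Array weights called 12.1% of brighter genes higher, and the fit without control replicate 4, which gave the 9, called 1688 of 7109 brighter genes. The exact permutation test passed no gene, over all genes or among the brighter ones, so its counts of 0 are no result about these genes. The cause of the other changes was not tested. Replicate numbers were shared between the groups, but the correlation of same-numbered hearts ran from -0.118 to 0.259 and 2 of 6 failing hearts matched their own number best, so the block joins hearts that share only a number. Differences of Ptges (-0.05 without failing replicate 4 or control replicate 6), Ptger4 (-0.06 without control replicate 2) and Alox5 (-0.04 without failing replicate 2, -0.24 without control replicate 5) changed sign, and their highest values without 1 heart were 0.32 for Ptges (without failing replicate 2), 0.41 for Ptger4 (without control replicate 4) and 0.45 for Alox5 (without failing replicate 6). Dim values near the bottom of the scale spread widely after log2 and limit what can be seen of Ptges and Alox5.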
